A study of Homo sapiens with 10 samples.

Results

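The data described here are RNA-seq libraries of QGP-1 cells, an established human pancreatic neuroendocrine tumor line, in which PIKFYVE was silenced by CRISPR interference (CRISPRi). Both libraries labelled sgPIKFYVE_1 were compared with both libraries labelled sgNC, so that 4 of the 10 samples of the series entered the comparison, chosen by their labels alone. All 4 came from cells that carried a lentiviral vector with a guide RNA, a nuclease-dead Cas9 joined to the KRAB repressor domain, and puromycin resistance. sgNC is the control guide. The knockdown rests on 1 guide, and each line is a puromycin-selected pool, so an effect of the guide and an effect of PIKFYVE loss cannot be told apart here. No time after infection is given in the labels. The sources do not say whether the replicates came from separate cultures, so p-values measure only the spread between these samples. Apilimod, an inhibitor of the PIKfyve enzyme, was added to QGP-1 cells at 1 µM in 2 further samples with 2 DMSO samples as their control, and this separate table is used only for comparison.

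PIKfyve is a lipid kinase of endosomes and lysosomes. It phosphorylates phosphatidylinositol 3-phosphate to phosphatidylinositol 3,5-bisphosphate, which controls membrane traffic, ion channels and the fission of these organelles, and cells without it fill with large vacuoles. Neuroendocrine tumor cells store peptide hormones in dense-core granules, and their identity is usually read from granule proteins such as the chromogranins. The comparison asks which programs other than lipid synthesis differed in these cells, read through genes of identity, secretion, adhesion, stress and proliferation.

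Values are normalized read counts scaled to the size of each library (the CPM scale). The sgNC libraries held about 10.6 M and 11.4 M reads, and the sgPIKFYVE_1 libraries about 9.30 M and 9.48 M, as estimated from the low values. At these depths 3 reads correspond to 0.262 to 0.329 CPM, which covers counting error only. Replicates correlated across genes at 0.992 in each group, and samples of different groups no lower than 0.969. Mitochondrial genes took 6.90% and 6.91% of the signal with sgNC and 8.33% and 8.42% with sgPIKFYVE_1. All 10 neuroendocrine markers were at 1 CPM or more, CHGB highest, and their summed level was 4993 to 5206 CPM with sgNC and 4003 to 4085 CPM with sgPIKFYVE_1. Of 8 acinar markers, 6 were listed at 0 in all 4 samples and none reached 1 CPM. Immune markers summed to 7.66 to 7.82 CPM with sgNC and 17.3 to 19.3 CPM with sgPIKFYVE_1, most of it LYZ, with CD3E, CD79A, MS4A1 and TYROBP listed at 0.

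The target gene was silenced. PIKFYVE stood at 100.70 and 97.5 CPM with sgNC and 10.9 and 12.5 CPM with sgPIKFYVE_1. The groups were far apart, and 11.8% of the control level remained (log2 fold change -2.98, SE 0.10, limma adjusted p = 1.22e-14). Fold changes throughout are differences of log2(CPM + 1), which understates the change of low genes, and adjusted p-values come from limma and were adjusted for every gene in the fit by the Benjamini-Hochberg method. PIKFYVE lies on the plus strand of chromosome 2 (GRCh38, chr2:208266267-208358751 in GENCODE release 29). Its closest neighbour, IDH1, which makes NADPH from isocitrate in the cytosol and peroxisomes, runs in the opposite direction, and the annotated starts of the pair are 0.193 kb apart. Most of the bases between them, read on the PIKFYVE strand from the RefSeq promoter of PIKFYVE (GRCh38.p14, chr2:208266075-208266254, 180 bases with 12 CpG dinucleotides), are shown because a CRISPRi repressor acts around a start site:
PIKFYVE and IDH1: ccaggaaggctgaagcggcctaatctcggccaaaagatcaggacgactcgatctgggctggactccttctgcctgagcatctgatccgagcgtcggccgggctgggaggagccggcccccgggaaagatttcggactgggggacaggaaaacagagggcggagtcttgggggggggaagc
IDH1 was not lowered with its neighbour. Its values were 154 and 159.9 CPM with sgNC and 306 and 309 CPM with sgPIKFYVE_1, about 2-fold higher in both knockdown samples (log2 fold change 0.97, limma adjusted p = 1.29e-11). With apilimod, which inhibits the enzyme, IDH1 went from 214 and 206 CPM with DMSO to 420.0 and 430.0 CPM, a log2 fold change of 1.01. Downstream of PIKFYVE, PTH2R, a parathyroid hormone receptor, was at 2.12 and 1.048 CPM with sgNC and 4.93 and 4.31 CPM with sgPIKFYVE_1 (log2 fold change 1.15). PLEKHM3, farther upstream, did not pass the test (log2 fold change 0.10). ZNF10, the zinc finger gene whose KRAB domain is the one commonly used in CRISPRi repressors, was at 67.02 and 65.8 CPM with sgNC and 142 and 136 CPM with sgPIKFYVE_1 (log2 fold change 1.06). In the drug table, without the vector, it was at 32.1 and 32.0 CPM with DMSO, and whether reads of the vector enter its values was not tested.

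Much of the transcriptome differed. Of 13591 genes that averaged 1 CPM or more, 5772 (42.5%) had an adjusted p-value under 0.05. 2935 (21.6%) were higher and 2837 (20.9%) lower in the knockdown. The median log2 fold change of all genes was 0.00 on this scale and the median standard error 0.11, and most called changes were small. A log2 fold change of at least 1 was reached by 213 genes (1.57%), and one of at most -1 by 376 (2.77%). The groups did not overlap in 70.6% of genes. The counts for gene lists below are to be read against these shares. The lists overlap, so that GDF15 and STC1 each count in several.

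Among protein-coding genes with non-overlapping groups, CEACAM6, a cell-surface adhesion glycoprotein of gut epithelium, was among the most increased. It stood at 60.9 and 58.6 CPM with sgNC and 494 and 499 CPM with sgPIKFYVE_1, with a wide gap between the groups and close replicates (log2 fold change 3.03, SE 0.053, limma adjusted p = 1.54e-18). TNFSF15, a cytokine of the TNF family, was at 147 and 156 CPM with sgNC and 663 and 696 CPM with sgPIKFYVE_1, and GDF15, a secreted stress cytokine of the TGF-beta superfamily, at 434 and 452 CPM with sgNC and 1889 and 1709 CPM with sgPIKFYVE_1. Both genes were already well expressed in control cells and no knockdown value came near a control value (log2 fold changes 2.16 and 2.02). Genes that were close to the detection limit in control cells also appeared, such as CTSS, a lysosomal cysteine protease, at 1.78 and 1.42 CPM with sgNC and 16.8 and 12.4 CPM with sgPIKFYVE_1, and NLRC5, the transactivator of MHC class I genes, at 1.11 and 1.048 CPM with sgNC and 9.97 and 9.92 CPM with sgPIKFYVE_1. Further increases were in DYNC2H1, the motor of retrograde transport in cilia (2.19), APCDD1, a WNT antagonist (2.12), SCGN, a calcium-binding protein of neuroendocrine cells (2.11), PAPSS2, which makes the sulfate donor PAPS (2.07), the potassium channel KCNA2 (2.27) and the cilium gene PIFO (2.05).

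**Figure D1:**
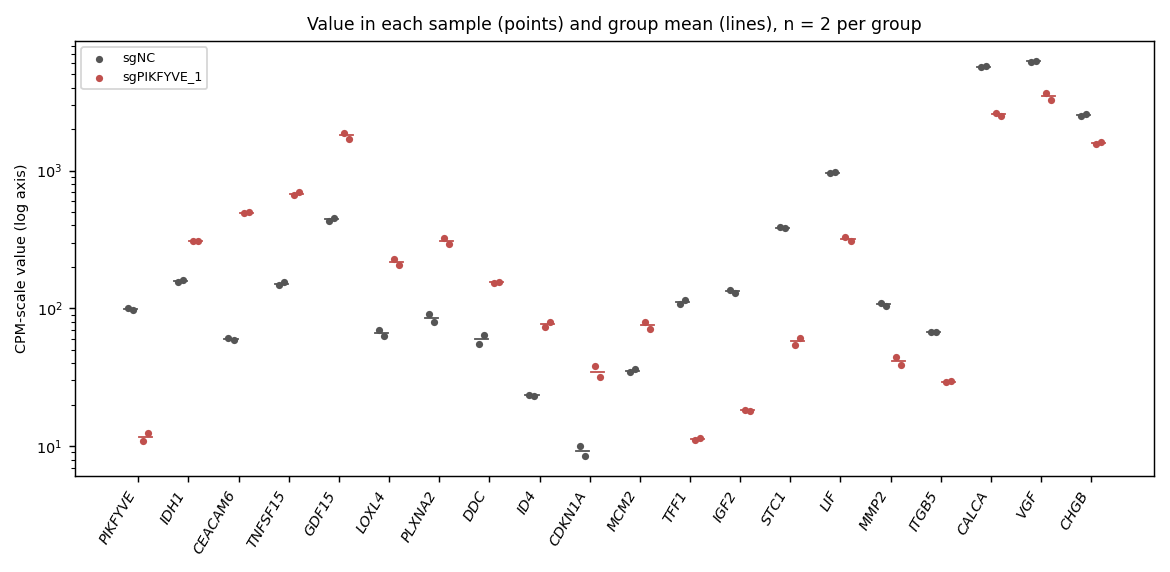
CPM-scale value (log axis) of 20 genes in each sample, sgNC in grey and sgPIKFYVE_1 in red, with points for the 2 samples of a group and a line for their mean. The red and grey points do not overlap for any gene shown. Apart from PIKFYVE and IDH1, the genes were named on that condition, which 70.6% of all genes tested met. PIKFYVE fell from a mean of 99.1 to 11.7 CPM, and CEACAM6 rose from 59.8 to 496 CPM.

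The steepest decrease among these protein-coding genes was in TFF1, a trefoil peptide that mucosal cells secrete. It stood at 107 and 114 CPM with sgNC and 11.1 and 11.4 CPM with sgPIKFYVE_1 (log2 fold change -3.19, SE 0.092, limma adjusted p = 1.87e-15), a fall as deep as that of the targeted gene. IGF2, an insulin-like growth factor, was at 136 and 130.01 CPM with sgNC and 18.2 and 18.1 CPM with sgPIKFYVE_1, and STC1, the secreted glycoprotein stanniocalcin 1, at 387 and 385 CPM with sgNC and 54.4 and 61.3 CPM with sgPIKFYVE_1. Both fell in each knockdown sample, to 13.6% and 14.98% of the control mean (log2 fold changes -2.81 and -2.72). Also among the 15 lowest protein-coding genes were the neuronal ubiquitin ligase TRIM9 (-2.86), the collagen-binding integrin subunit ITGA10 (-2.77), the pore-forming GSDMA (-2.77), the chondroitin sulfotransferase CHST15 (-2.70), the adhesion receptor ADGRB1 (-2.62), the Eph receptor EPHB6 (-2.57), the coactivator CITED4 (-2.45), the secreted metalloprotease ADAMTS9 (-2.42) and the collagen chain COL6A2 (-2.34).

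Some of these ranks rest on uneven replicates. TIMM22 had the highest log2 fold change (4.08) with 8.11 and 30.7 CPM in the knockdown samples and both controls under 3 reads. SMIM11B (3.03) has a near-identical copy, SMIM11A, so reads may be split between them. AL139300.1 was 1.35 without sgNC replicate 1 and 2.54 with all samples. ZNF100 was 2.06 with all samples, 3.14 without sgNC replicate 1 and 0.99 without sgNC replicate 2. AC006064.6 was -2.42 with all samples, -4.07 without sgNC replicate 2 and, no longer passing the test, -0.77 without sgNC replicate 1.

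**Figure D2:**
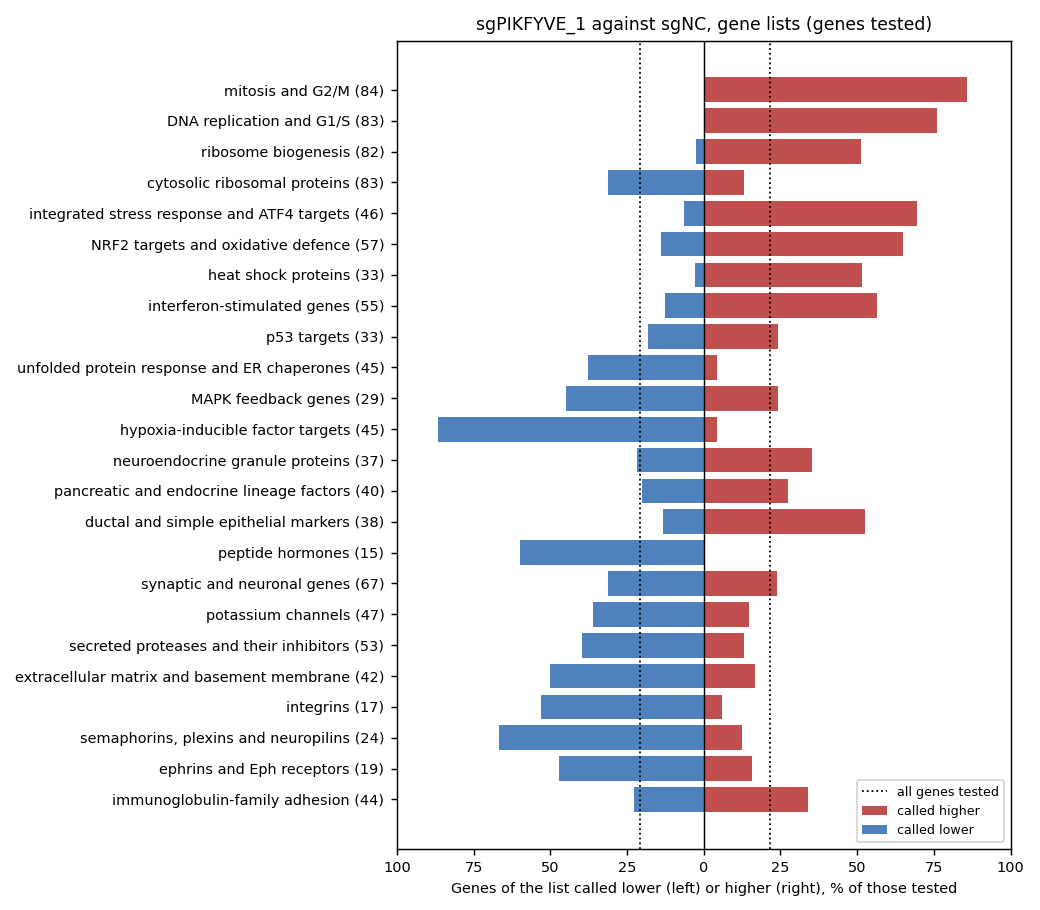
Percentage of the tested genes of 24 lists called lower (blue, left) or higher (red, right) in sgPIKFYVE_1 at an adjusted p-value under 0.05, with dotted lines at the shares over all genes tested (20.9% and 21.6%). Mitosis and DNA replication lie far to the right, hypoxia-inducible factor targets, peptide hormones, semaphorins and integrins to the left, and granule proteins and lineage factors have genes on both sides.

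Genes of cell division were higher in the knockdown as groups. Of 84 mitosis and G2/M genes tested, 72 (85.7%) were called higher and 0 lower, or 1 lower without sgPIKFYVE_1 replicate 2, with a median log2 fold change of 0.56. Of 83 DNA replication and G1/S genes, 63 (75.9%) were called higher and 0 lower, with a median of 0.51. The changes were moderate, and 0 of the mitosis genes reached a log2 fold change of 1. In bulk samples a larger share of cells in these phases of the cycle and more of these transcripts per cell cannot be told apart. The study reports reduced growth, measured as confluence, after CRISPRi knockdown of PIKFYVE in its tumor lines, QGP-1 among them. Transcript levels alone do not measure growth.

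The replication genes with the largest changes act at several steps of the process. MCM2, a subunit of the replicative helicase, was at 34.6 and 36.1 CPM with sgNC and 80.2 and 70.4 CPM with sgPIKFYVE_1 (log2 fold change 1.07, SE 0.084, limma adjusted p = 5.91e-09). ORC6, of the origin recognition complex, was at 23.5 and 21.7 CPM with sgNC and 47.03 and 50.7 CPM with sgPIKFYVE_1, and EXO1, an exonuclease of mismatch repair and recombination, at 15.3 and 14.5 CPM with sgNC and 35.9 and 43.3 CPM with sgPIKFYVE_1. In each of these genes the lower knockdown sample was close to 2-fold the higher control sample or above it. GINS3, another helicase component, and DSCC1, which helps load the PCNA clamp, had log2 fold changes of 1.09 and 1.01. Among mitotic regulators, FOXM1, the transcription factor of G2/M genes, was at 48.2 and 46.2 CPM with sgNC and 88.7 and 89.2 CPM with sgPIKFYVE_1 (log2 fold change 0.90, SE 0.072, limma adjusted p = 7.19e-09), and MYBL2, of the same gene program, at 14.002 and 19.996 CPM with sgNC and 33.9 and 30.7 CPM with sgPIKFYVE_1. The kinetochore protein ZWINT (0.90), the spindle protein FAM83D (0.94) and the cohesin protector SGO1 (0.85) followed.

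Part of the promoters in both groups hold the motifs these genes are known for. E2F factors bind TTTCGCGC or TTTGGCGC and drive the G1/S genes, and the CHR element, TTTGAA, marks G2/M genes. RefSeq promoters (GRCh38.p14, 250 bases before to 50 after the start) were found for 10529 of the 13069 protein-coding genes tested and were searched on both strands. An E2F match was in 26.9% of 67 replication promoters, 2.08% of all tested and 1.18% of all 27305 promoters in the table. A CHR match was in 62.3% of 69 mitosis promoters, 9.72% of all tested and 15.4% of all in the table. For the windows, some genes were left out by their chromosome, and the rest were taken in order of change. Windows around the match closest to the start are shown for some of the genes called higher with a match upstream of it, with the match in capitals:
CDC25A (chr3:48188446-48188469, minus strand): ggattccgTTTGGCGCcaactagg
HELLS (chr10:94545704-94545727, plus strand): cgcaagctGCGCCAAAtctcgcgc
E2F2 (chr1:23531260-23531283, minus strand): gcacgacgTTTGGCGCtaaaaaaa
MCM7 (chr7:100101398-100101414, minus strand): gggcgacgTTTCGCGCc
ZWINT (chr10:56361276-56361299, minus strand): gactgtgacTTCAAAgtaatctta
CDCA8 (chr1:37692484-37692507, plus strand): actgtggagTTTGAAttgggtggc
CDC20 (chr1:43358907-43358930, plus strand): cggttggatTTTGAAggagccaat
BUB1B (chr15:40161037-40161060, plus strand): accgttaaaTTTGAAacttggcgg
These genes rose by log2 fold changes of 0.91 (CDC25A, a phosphatase that activates cyclin-dependent kinases), 0.84 (HELLS, a chromatin remodeler), 0.80 (E2F2), 0.43 (MCM7, a helicase subunit), 0.90 (ZWINT), 0.81 (CDCA8, of the chromosomal passenger complex), 0.80 (CDC20, an activator of the anaphase-promoting complex) and 0.72 (BUB1B, of the spindle checkpoint). A match is a description of letters and shows no binding.

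Brakes and accelerators of the cycle moved in both directions. Of 27 cyclin-dependent kinase inhibitors, G1 cyclins and MYC-family genes, 9 were called higher and 6 lower. CDKN1A, the p21 inhibitor of cyclin-dependent kinases, was at 10.01 and 8.47 CPM with sgNC and 37.9 and 31.6 CPM with sgPIKFYVE_1 (log2 fold change 1.80, SE 0.14, limma adjusted p = 2.95e-09), so an inhibitor of the cycle rose beside the replication genes. CDKN2B, another such inhibitor, was at 35.1 and 34.8 CPM with sgNC and 19.7 and 15.9 CPM with sgPIKFYVE_1, lower. MYC was at 56.5 and 60.2 CPM with sgNC and 89.5 and 89.2 CPM with sgPIKFYVE_1 and CDK4 at 162 and 181 CPM with sgNC and 242 and 247 CPM with sgPIKFYVE_1, both higher, whereas MYCN was at 6.03 and 8.56 CPM with sgNC and 2.63 and 3.13 CPM with sgPIKFYVE_1, lower. MXI1, which opposes MYC, had a log2 fold change of -0.74.

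Ribosome biogenesis and the ribosomal proteins did not move alike. Of 82 ribosome biogenesis genes, 42 were called higher and 2 lower, or 1 lower without sgNC replicate 1 (median 0.26), with NOLC1, a nucleolar chaperone, at 138 and 136 CPM with sgNC and 205 and 218 CPM with sgPIKFYVE_1 and WDR3, of the small-subunit processome, at 84.9 and 82.8 CPM with sgNC and 126 and 131 CPM with sgPIKFYVE_1. Of 83 cytosolic ribosomal proteins, 11 were called higher and 26 lower (median -0.07), and these counts moved with single libraries, to 5 higher without sgNC replicate 1 and 16 lower without sgNC replicate 2. RPL3 was at 1204 and 1271 CPM with sgNC and 948 and 946 CPM with sgPIKFYVE_1 and RPL10 at 1808 and 1878 CPM with sgNC and 1432 and 1448 CPM with sgPIKFYVE_1, both lower. Histone genes of S phase were mostly not called, with 4 of 29 higher and 1 lower, or 0 lower without sgNC replicate 2.

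The most uniform decrease was in targets of the hypoxia-inducible factors (HIF), which switch cells to glycolysis and angiogenesis when oxygen is low. Of 45 targets and factors tested, 39 (86.7%) were called lower and 2 (4.44%) higher, with a median of -0.57. In 10 the log2 fold change was at most -1. PFKFB3, which makes the allosteric activator of glycolysis, was at 139.8 and 142 CPM with sgNC and 53.4 and 50.4 CPM with sgPIKFYVE_1 (log2 fold change -1.43, SE 0.066, limma adjusted p = 2.71e-12). CA9, the cell-surface carbonic anhydrase that is a standard hypoxia marker, was at 8.99 and 10.2 CPM with sgNC and 1.42 and 1.83 CPM with sgPIKFYVE_1, and PPFIA4, a liprin, at 31.2 and 28.4 CPM with sgNC and 5.26 and 5.39 CPM with sgPIKFYVE_1. In each of these the groups were far apart. The collagen prolyl hydroxylase P4HA1 (-1.29), ANKRD37 (-1.24), NDRG1 (-1.24), PDK1, which inhibits pyruvate dehydrogenase (-1.21), and EGLN3, an oxygen sensor (-1.17), fell as well.

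Enzymes of glycolysis themselves were among the members that fell. LDHA, which makes lactate, was at 1533 and 1536 CPM with sgNC and 956 and 974 CPM with sgPIKFYVE_1, PGK1 at 1244 and 1348 CPM with sgNC and 823 and 825 CPM with sgPIKFYVE_1 and ENO1 at 1228 and 1280.1 CPM with sgNC and 903 and 889 CPM with sgPIKFYVE_1 (log2 fold changes -0.67, -0.65 and -0.48). The mitophagy receptors BNIP3 and BNIP3L had log2 fold changes of -0.78 and -0.67, and VEGFA, the angiogenic growth factor, -0.37. The members called higher were HIF1A, the factor itself, at 181 and 172 CPM with sgNC and 198 and 223 CPM with sgPIKFYVE_1, and the secreted STC2, at 40.8 and 39.1 CPM with sgNC and 46.7 and 50.9 CPM with sgPIKFYVE_1. HIF1A was 0.25 with all samples and 0.17 without sgPIKFYVE_1 replicate 2, and STC2 did not pass without sgNC replicate 2 or without sgPIKFYVE_1 replicate 2.

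The core of the hypoxia response element, ACGTG, was in 51.4% of 37 promoters of this list, 26.5% of all tested and 21.6% of all in the table. The same letters lie inside the CLEAR element searched here, TCACGTG, which the PPFIA4 window below holds in full. Windows of some of the genes called lower with a match upstream of the start, taken as above and with the match in capitals, are:
PPFIA4 (chr1:203026363-203026385, plus strand): cgctctcgtCACGTgcccggacc
CA9 (chr9:35673901-35673923, plus strand): tttccaatgCACGTacagcccgt
P4HA1 (chr10:73096939-73096961, minus strand): gatcgagctCACGTagcgagggc
ANKRD37 (chr4:185396689-185396711, plus strand): tgtttgtgtACGTGcggccgtgg

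Interferon-stimulated genes, which include the antigen-presentation genes, were higher as a group with exceptions. Of 55 tested, 31 (56.4%) were called higher, 13 of them with a log2 fold change of at least 1, and 7 (12.7%) lower, or 4 lower without sgNC replicate 2. The median was 0.52. IFIT3, an antiviral protein, was at 2.32 and 2.62 CPM with sgNC and 12.6 and 12.5 CPM with sgPIKFYVE_1, OAS1, which senses double-stranded RNA, at 1.67 and 2.97 CPM with sgNC and 9.43 and 8.31 CPM with sgPIKFYVE_1, and APOL6 at 27.6 and 22.8 CPM with sgNC and 66.5 and 79.5 CPM with sgPIKFYVE_1. IFIT3 and OAS1 stayed at low levels even in the knockdown. B2M, the light chain of MHC class I, was at 496 and 505 CPM with sgNC and 961 and 1033 CPM with sgPIKFYVE_1 (log2 fold change 0.99, SE 0.043, limma adjusted p = 1.15e-12), the transporter TAP1 at 9.65 and 6.50 CPM with sgNC and 13.4 and 15.01 CPM with sgPIKFYVE_1, and the transcription factor IRF1 at 16.8 and 18.6 CPM with sgNC and 47.03 and 40.2 CPM with sgPIKFYVE_1. Classical antiviral members that did not pass the test include ISG15 at 15.4 and 17.7 CPM with sgNC and 20.2 and 19.5 CPM with sgPIKFYVE_1, MX1 at 4.27 and 2.71 CPM with sgNC and 4.31 and 3.56 CPM with sgPIKFYVE_1 and IFIT1 at 1.95 and 2.53 CPM with sgNC and 2.19 and 3.24 CPM with sgPIKFYVE_1. IFI30, a lysosomal thiol reductase, fell (-0.51). The summed immune markers rose in the same samples, as given above, with 4 of 8 at 0, and their part in this result was not tested.

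Within the promoters of this list, the interferon-stimulated response element, TTTC, any 2 bases and TTTC again, was in 55.8% of 43, with 2.61% of all tested and 3.65% of all in the table. It is shown in capitals in:
IFIT3 (chr10:89327868-89327891, plus strand): aaattagTTTCACTTTCcagtttc
SAMD9 (chr7:93118099-93118122, minus strand): gagaaatGAAACTGAAAccaaacc
OAS3 (chr12:112938455-112938473, plus strand): cgggcggGAAAACGAAAcc
B2M (chr15:44711366-44711389, plus strand): actctaaGAAAAGGAAActgaaaa

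Amino acid and oxidative stress programs were raised. Of 46 targets of ATF4, the factor of the integrated stress response, 32 (69.6%) were called higher and 3 lower (median 0.33). DDIT3, which encodes CHOP, was at 24.3 and 25.3 CPM with sgNC and 49.4 and 50.6 CPM with sgPIKFYVE_1 and ATF3 at 8.90 and 8.73 CPM with sgNC and 19.6 and 17.6 CPM with sgPIKFYVE_1, about 2-fold higher in every knockdown sample. PHGDH and PSAT1, enzymes of serine synthesis, were at 57.3 and 62.8 CPM with sgNC and 114 and 114 CPM with sgPIKFYVE_1 and 40.99 and 39.99 CPM with sgNC and 74.1 and 70.98 CPM with sgPIKFYVE_1. The 3 called lower were DDIT4, an inhibitor of mTORC1 (-0.53), the amino acid transporter SLC38A2 (-0.45) and VEGFA. The letters TGATGCAA, the C/EBP-ATF element, were in 16.7% of 36 promoters of the list, 0.446% of all tested and 0.923% of all in the table.

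Of 57 targets of NRF2 and other oxidative defence genes, 37 (64.9%) were called higher and 8 lower, or 5 lower without either sgNC replicate (median 0.30). SQSTM1, the autophagy receptor p62, was at 272 and 263 CPM with sgNC and 624 and 598 CPM with sgPIKFYVE_1 (log2 fold change 1.19, SE 0.045, limma adjusted p = 1.20e-13). GPX2, a glutathione peroxidase of gut epithelium, was at 51.3 and 54.3 CPM with sgNC and 96.1 and 88.8 CPM with sgPIKFYVE_1, and ME1, which makes NADPH, at 83.5 and 79.7 CPM with sgNC and 141 and 139 CPM with sgPIKFYVE_1. The exception of greatest size was the efflux pump ABCC3, at 65.7 and 56.3 CPM with sgNC and 12.6 and 11.003 CPM with sgPIKFYVE_1, a fall of 2.27 on the log2 scale.

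**Figure D3:**
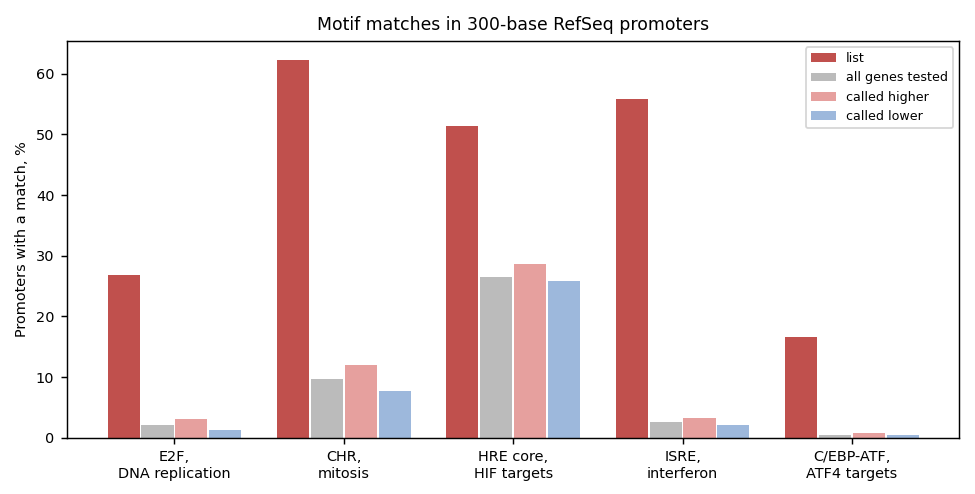
Percentage of 300-base RefSeq promoters with a motif match on either strand, for the genes of a list (red), all genes tested (grey), genes called higher (light red) and genes called lower (light blue). The list bars stand at 26.9%, 62.3%, 51.4%, 55.8% and 16.7%, while for CHR, as an example, called-higher genes stand at 11.997%, called-lower genes at 7.67% and all genes tested at 9.72%.

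Protein-folding genes split by compartment. Of 33 heat shock proteins, 17 were called higher and 1 lower, or 0 lower without either sgNC replicate (median 0.21). HSPD1 and HSPE1, the mitochondrial chaperonin pair, were at 675 and 681 CPM with sgNC and 1043 and 1084 CPM with sgPIKFYVE_1 and 183 and 195 CPM with sgNC and 295 and 317 CPM with sgPIKFYVE_1, and cytosolic HSPH1 at 108 and 119 CPM with sgNC and 179 and 179 CPM with sgPIKFYVE_1. Of 45 genes of the unfolded protein response and endoplasmic reticulum chaperones, 2 were called higher and 17 lower (median -0.07). The oxidase ERO1A was at 243 and 227 CPM with sgNC and 149 and 157 CPM with sgPIKFYVE_1, and ERN1, which encodes the stress sensor IRE1, at 266 and 269.6 CPM with sgNC and 201 and 198 CPM with sgPIKFYVE_1. The higher calls were CALR (0.22) and SEC23B (0.16), and SEC23B did not pass without sgNC replicate 2 or sgPIKFYVE_1 replicate 2.

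Signalling read-outs were mixed. Of 37 immediate early genes, 7 were called higher and 15 lower, and of 29 feedback genes of the MAPK pathway, 7 higher and 13 lower (median -0.26). EGR1, an immediate early factor, was at 36.8 and 34.6 CPM with sgNC and 10.9 and 11.8 CPM with sgPIKFYVE_1 (log2 fold change -1.58, SE 0.12, limma adjusted p = 3.53e-09), and DUSP6, a phosphatase that ERK induces against itself, at 352 and 351 CPM with sgNC and 199 and 184 CPM with sgPIKFYVE_1. PHLDA1 was at 248 and 243 CPM with sgNC and 111 and 117 CPM with sgPIKFYVE_1. Against these, ZFP36L2, an mRNA-destabilizing protein, was at 7.14 and 6.20 CPM with sgNC and 18.6 and 20.6 CPM with sgPIKFYVE_1, and DUSP1 at 16.04 and 16.1 CPM with sgNC and 24.1 and 27.2 CPM with sgPIKFYVE_1, both higher.

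Of 33 targets of p53, 8 (24.2%) were called higher and 6 (18.2%) lower, near the 21.6% and 20.9% of all genes tested. Called or not, 25 had a positive and 8 a negative log2 fold change. CDKN1A and GDF15 headed this list, and MDM2, the negative regulator of p53, was at 533 and 533 CPM with sgNC and 695 and 730.4 CPM with sgPIKFYVE_1. FBXW7, a ubiquitin ligase subunit, was at 303 and 308 CPM with sgNC and 175 and 179.9 CPM with sgPIKFYVE_1, lower. Of 25 NF-kappaB targets, 5 were called higher and 7 lower, with ICAM1 (1.14) and TRAF1 (-1.047) as the extremes besides IRF1. Of 44 apoptosis regulators, 9 were called higher and 5 lower, or 3 lower without sgNC replicate 1. The initiator caspase CASP8 was at 2.78 and 1.99 CPM with sgNC and 8.32 and 6.72 CPM with sgPIKFYVE_1, higher in both samples. Of 8 metallothioneins and their regulator, 3 were called higher, and each of these calls was lost without at least 1 library.

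**Figure D4:**
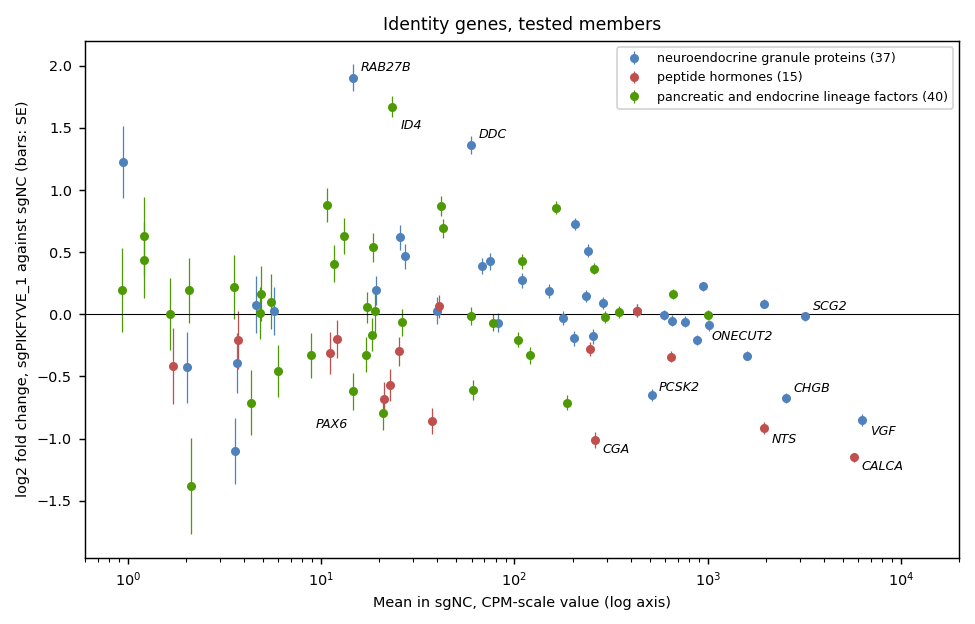
Mean CPM-scale value in sgNC (log axis) against the log2 fold change with its standard error, for tested granule proteins (blue), peptide hormones (red) and pancreatic and endocrine lineage factors (green). The most abundant hormones and VGF and CHGB lie below 0, and ONECUT2 and SCG2 close to 0.

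Peptide hormones were lower. Of 15 tested, 9 (60%) were called lower and 0 higher, with a median of -0.34. CALCA, which encodes calcitonin and CGRP, was at 5664 and 5713 CPM with sgNC and 2618 and 2509.8 CPM with sgPIKFYVE_1 (log2 fold change -1.15, SE 0.037, limma adjusted p = 8.58e-15). NTS, neurotensin, was at 1931 and 1970.2 CPM with sgNC and 977 and 1093 CPM with sgPIKFYVE_1, and CGA, the common subunit of the glycoprotein hormones, at 253 and 269 CPM with sgNC and 120.1 and 138 CPM with sgPIKFYVE_1. Their knockdown means were 45.1%, 53.1% and 49.5% of control. UCN3 (-0.86), CALCB (-0.68), ADM (-0.57), SST (-0.34), GAL (-0.30) and NUCB2 (-0.28) were the others called, and GAL did not pass when any 1 of the 4 libraries was left out.

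Granule proteins did not follow as a group. Of 37 tested, 13 were called higher and 8 lower, with a median of 0.03. VGF, a granin-like precursor and the most abundant of the list, was at 6175 and 6297 CPM with sgNC and 3681 and 3249 CPM with sgPIKFYVE_1 (log2 fold change -0.85, SE 0.046, limma adjusted p = 2.67e-11), CHGB, chromogranin B, at 2477 and 2586 CPM with sgNC and 1555 and 1619 CPM with sgPIKFYVE_1, and PCSK2, a prohormone convertase, at 503 and 528 CPM with sgNC and 336 and 321 CPM with sgPIKFYVE_1. The 44 listed members together summed to 23289 and 23897 CPM with sgNC and 19867 and 19849 CPM with sgPIKFYVE_1. SCG2, a further granin, was at 3126 and 3238 CPM with sgNC and 3068 and 3222 CPM with sgPIKFYVE_1, with overlapping groups, and CHGA, chromogranin A, had a log2 fold change of 0.03 that did not pass. TPH1, which starts serotonin synthesis, was at 1947 and 1970.5 CPM with sgNC and 2032 and 2128 CPM with sgPIKFYVE_1 and did not pass. RAB27B, which docks granules at the membrane, was at 14.6 and 14.8 CPM with sgNC and 52.6 and 63.1 CPM with sgPIKFYVE_1, and DDC, which makes serotonin and dopamine from their precursors, at 55.3 and 64.2 CPM with sgNC and 154 and 157 CPM with sgPIKFYVE_1, both higher. The vesicle protein SV2B (0.73), the small GTPase RAB3A (0.62) and SYT4 (0.51) rose too.

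Of 40 transcription factors of the lineage, 11 (27.5%) were called higher and 8 (20%) lower, with a median of 0.02. These shares were near the 21.6% and 20.9% of all genes tested. The lower count fell when sgNC replicate 2 was left out. The most abundant, ONECUT2, was at 1014 and 985 CPM with sgNC and 995 and 999 CPM with sgPIKFYVE_1. It did not pass, and the groups overlapped. PAX6, an endocrine factor of the islet, was at 21.7 and 20.02 CPM with sgNC and 11.8 and 11.4 CPM with sgPIKFYVE_1 (log2 fold change -0.80, SE 0.13, limma adjusted p = 8.74e-05), and ST18, a zinc finger factor of the MYT family, at 195 and 181 CPM with sgNC and 119 and 109.8 CPM with sgPIKFYVE_1. MNX1 and FOXA2, factors of pancreas development, fell as well (-0.62 and -0.33). Among the factors called higher were SOX9, known from ductal cells, at 43.1 and 42.7 CPM with sgNC and 70.4 and 69.6 CPM with sgPIKFYVE_1, the epithelial factor ELF3 at 167 and 162 CPM with sgNC and 307 and 291 CPM with sgPIKFYVE_1, FOXA1 at 39.8 and 43.4 CPM with sgNC and 73.98 and 79.9 CPM with sgPIKFYVE_1, and ID4, which blocks differentiation factors of the bHLH type, at 23.4 and 23.3 CPM with sgNC and 73.1 and 80.3 CPM with sgPIKFYVE_1.

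Ductal and simple epithelial markers were higher in 20 of 38 (52.6%) and lower in 5, with a median of 0.25. MUC13, a transmembrane mucin, was at 78.7 and 79.98 CPM with sgNC and 269 and 269 CPM with sgPIKFYVE_1 (log2 fold change 1.75, SE 0.055, limma adjusted p = 5.98e-15), MUC1 at 21.1 and 23.1 CPM with sgNC and 47.9 and 48.9 CPM with sgPIKFYVE_1, and the calcium-binding S100A6 at 462 and 465 CPM with sgNC and 942 and 901 CPM with sgPIKFYVE_1. KRT7, a keratin of ducts, went the other way, at 506 and 523 CPM with sgNC and 355 and 341 CPM with sgPIKFYVE_1. Of 25 genes of the gastrointestinal mucosa, 9 were called higher and 6 lower. CEACAM5, the carcinoembryonic antigen, was at 1518 and 1493 CPM with sgNC and 3938 and 3795 CPM with sgPIKFYVE_1, while the trefoil gene TFF3 was at 551 and 556 CPM with sgNC and 283 and 251 CPM with sgPIKFYVE_1, lower like TFF1. LYZ, lysozyme, was at 6.32 and 4.81 CPM with sgNC and 15.5 and 18.4 CPM with sgPIKFYVE_1. LGR5, a stem cell receptor of the gut, was at 9.55 and 10.7 CPM with sgNC and 4.27 and 4.21 CPM with sgPIKFYVE_1.

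Neuronal genes and channels were called in both directions. Of 67 synaptic and neuronal genes, 16 were called higher and 21 lower, and without sgNC replicate 1 the counts were 16 and 16. GAP43, a growth cone protein, was at 343 and 371 CPM with sgNC and 106 and 106 CPM with sgPIKFYVE_1 (log2 fold change -1.74, SE 0.054, limma adjusted p = 5.69e-15), and SRRM4, the neuronal splicing factor, at 46.2 and 50.02 CPM with sgNC and 29.1 and 26.04 CPM with sgPIKFYVE_1. MAP1A, a microtubule-associated protein, was at 39.4 and 40.3 CPM with sgNC and 89.9 and 81.6 CPM with sgPIKFYVE_1, higher. Of 47 potassium channels, 7 were called higher and 17 (36.2%) lower (median -0.24). Of 22 voltage-gated calcium and sodium channels, 3 were called higher and 5 lower, or 2 lower without sgNC replicate 1, and SCN3A, the most abundant of them, was at 513 and 496 CPM with sgNC and 653 and 677 CPM with sgPIKFYVE_1, higher.

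Some secreted factors changed in large steps, in both directions. Of 46 growth factors and binding proteins, 11 (23.9%) were called higher and 11 (23.9%) lower, with a median of 0.02. These shares were near the 21.6% and 20.9% of all genes tested. The higher count fell when sgPIKFYVE_1 replicate 2 was left out. Besides GDF15, IGF2 and STC1, the cytokine LIF was at 958 and 975 CPM with sgNC and 331 and 307 CPM with sgPIKFYVE_1 (log2 fold change -1.60, SE 0.045, limma adjusted p = 1.54e-15). KITLG, the ligand of the KIT receptor, was at 11.6 and 12.05 CPM with sgNC and 23.8 and 26.2 CPM with sgPIKFYVE_1, and IGFBP2 at 54.3 and 54.6 CPM with sgNC and 111 and 92.1 CPM with sgPIKFYVE_1, both higher. LTBP4, which holds latent TGF-beta in the matrix, was at 81.7 and 79.7 CPM with sgNC and 40.6 and 38.8 CPM with sgPIKFYVE_1. Of 24 TGF-beta superfamily ligands, antagonists and targets, 8 were called higher and 3 lower, with BMP8B at 33.6 and 33.97 CPM with sgNC and 85.97 and 84.8 CPM with sgPIKFYVE_1. ID3, a target of BMP signalling, was at 26.8 and 30.5 CPM with sgNC and 72.4 and 71.5 CPM with sgPIKFYVE_1.

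WNT and Notch genes were called in both directions. Of 22 WNT genes, 6 were called higher and 3 lower, with WLS, which carries WNT ligands to the surface, at 48.8 and 44.1 CPM with sgNC and 94.04 and 97.3 CPM with sgPIKFYVE_1. Of 27 genes listed under Notch, 3 were called higher and 12 (44.4%) lower (median -0.24). The higher count fell when sgPIKFYVE_1 replicate 1 was left out. The largest rise on this list, 1.85, was that of HEPACAM2, named below as an adhesion protein. The ligand JAG2 was at 145 and 138 CPM with sgNC and 97.8 and 90.1 CPM with sgPIKFYVE_1. The glycosyltransferase LFNG was at 132 and 134 CPM with sgNC and 84.7 and 85.7 CPM with sgPIKFYVE_1, so both were lower. Of 11 cytokines and chemokines, 3 were called higher, or 1 without sgNC replicate 2 or sgPIKFYVE_1 replicate 2, and 3 lower. TNFSF10, the death ligand TRAIL, was higher by 0.34, a call that was lost without any of 3 of the libraries.

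Secreted proteases and inhibitors were lower in 21 of 53 (39.6%) and higher in 7, or 4 higher without sgNC replicate 1. Besides ADAMTS9, the gelatinase MMP2 was at 109 and 105 CPM with sgNC and 44.3 and 39.2 CPM with sgPIKFYVE_1 (log2 fold change -1.34, SE 0.076, limma adjusted p = 5.43e-11), ADAMTS15 at 12.5 and 15.7 CPM with sgNC and 2.74 and 2.59 CPM with sgPIKFYVE_1 and the serine protease TMPRSS6 at 12.1 and 11.1 CPM with sgNC and 3.18 and 4.10 CPM with sgPIKFYVE_1. All 3 fell, to 39.1%, 18.9% and 31.4% of the control mean. Among plasma proteins, CLU, the chaperone clusterin, was at 63.8 and 65.3 CPM with sgNC and 134 and 129 CPM with sgPIKFYVE_1, higher, and CP, the copper ferroxidase ceruloplasmin, at 197 and 201 CPM with sgNC and 98.9 and 104 CPM with sgPIKFYVE_1, lower.

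The extracellular matrix was lower in 21 of 42 genes (50%) and higher in 7, with a median of -0.44. With no filter on low values 16 of 80 were lower and 5 higher, with a median of -0.10. In 8 the log2 fold change was at most -1. The collagen VI chain COL6A1 was at 28.7 and 26.9 CPM with sgNC and 7.67 and 9.28 CPM with sgPIKFYVE_1 (log2 fold change -1.61, SE 0.14, limma adjusted p = 2.31e-08) and COL6A2 at 7.14 and 7.07 CPM with sgNC and 0.658 and 0.539 CPM with sgPIKFYVE_1, so 2 chains of the same collagen fell. The other chain, COL6A3, was higher by 0.83, a call that was lost without sgPIKFYVE_1 replicate 1. ECM1 was at 13.5 and 12.4 CPM with sgNC and 2.96 and 3.02 CPM with sgPIKFYVE_1. Members of the lysyl oxidase family, which cross-link collagen, went apart, with LOXL2 at 27.1 and 28.8 CPM with sgNC and 12.8 and 10.9 CPM with sgPIKFYVE_1 and LOXL4 at 69.7 and 63.3 CPM with sgNC and 230.2 and 205 CPM with sgPIKFYVE_1. MATN2, matrilin 2, was at 10.01 and 10.3 CPM with sgNC and 26.5 and 25.9 CPM with sgPIKFYVE_1, and SMOC1 at 41.5 and 38.7 CPM with sgNC and 87.02 and 85.9 CPM with sgPIKFYVE_1, both higher. The fibroblast marker list summed to 10.1 to 10.4 CPM with sgNC and 6.18 to 8.03 CPM with sgPIKFYVE_1, with COL3A1 and LUM listed at 0, and its part in this result was not tested.

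Receptors for the matrix moved with it. Of 17 integrin subunits, 9 (52.9%) were called lower, 5 of them with a log2 fold change of at most -1, and 1 higher. The median was -0.31, or -0.16 without sgPIKFYVE_1 replicate 1. ITGB5, the beta 5 subunit, was at 66.9 and 66.9 CPM with sgNC and 29.2 and 29.6 CPM with sgPIKFYVE_1 (log2 fold change -1.16, SE 0.083, limma adjusted p = 1.45e-09), ITGA5, of the fibronectin receptor, at 7.14 and 9.34 CPM with sgNC and 2.85 and 2.16 CPM with sgPIKFYVE_1, and ITGA10 at 15.4 and 13.7 CPM with sgNC and 0.976 and 1.62 CPM with sgPIKFYVE_1. ITGA4 (-1.31) and ITGA11 (-1.13) were the others past -1, and ITGA11 did not pass without sgNC replicate 1. The most common partner, ITGB1, was at 555 and 538 CPM with sgNC and 477 and 489 CPM with sgPIKFYVE_1, a log2 fold change of -0.18, and ITGAV at 95.8 and 98.5 CPM with sgNC and 92.9 and 99.7 CPM with sgPIKFYVE_1, with no call. ITGAE, which binds E-cadherin, was at 19.4 and 20.3 CPM with sgNC and 28.5 and 31.9 CPM with sgPIKFYVE_1, higher.

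Inside the cell, focal adhesion and actin genes were split, 15 of 56 called higher, or 9 without sgNC replicate 1, and 18 lower. FLNA, the actin cross-linker filamin A, was at 553 and 552 CPM with sgNC and 322 and 287 CPM with sgPIKFYVE_1 (log2 fold change -0.86, SE 0.051, limma adjusted p = 8.94e-11), and ZYX, zyxin of focal adhesions, at 15.9 and 16.7 CPM with sgNC and 6.96 and 6.15 CPM with sgPIKFYVE_1, both lower. FERMT1 and FERMT2, kindlins that activate integrins, went apart, at 14.7 and 14.9 CPM with sgNC and 26.5 and 31.8 CPM with sgPIKFYVE_1 and 34.01 and 31.7 CPM with sgNC and 19.5 and 21.4 CPM with sgPIKFYVE_1. Of 16 YAP/TAZ targets, 3 were called higher and 4 lower, and 1 was higher without sgNC replicate 1 or either sgPIKFYVE_1 replicate. The guanine exchange factor DOCK5 was at 182 and 169.8 CPM with sgNC and 60.2 and 62.4 CPM with sgPIKFYVE_1.

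Guidance and contact receptors were mostly lower. Of 24 semaphorins, plexins and neuropilins, 16 (66.7%) were called lower and 3 higher (median -0.46), with SEMA4B at 693 and 680.3 CPM with sgNC and 287 and 259 CPM with sgPIKFYVE_1 (log2 fold change -1.33, SE 0.050, limma adjusted p = 9.32e-14) and SEMA3A at 151 and 152 CPM with sgNC and 84.3 and 91.5 CPM with sgPIKFYVE_1. PLXNA2, a semaphorin receptor, was the clear exception at 91.2 and 79.9 CPM with sgNC and 326 and 294 CPM with sgPIKFYVE_1. Of 19 ephrins and Eph receptors, 9 (47.4%) were called lower and 3 higher (median -0.39, or -0.26 without sgPIKFYVE_1 replicate 2), among them EFNA5 at 143 and 145 CPM with sgNC and 90.9 and 90.8 CPM with sgPIKFYVE_1 and EPHA2 at 11.9 and 9.95 CPM with sgNC and 4.06 and 4.75 CPM with sgPIKFYVE_1.

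Cell-cell adhesion genes did not fall as a group. Of 60 cadherins and protocadherins, 7 were called higher and 7 lower, or 4 lower without sgNC replicate 1. CDH1, E-cadherin, was at 509 and 509 CPM with sgNC and 616 and 611 CPM with sgPIKFYVE_1, a small rise, and the mesenchymal cadherin CDH11 at 47.4 and 42.7 CPM with sgNC and 21.7 and 21.1 CPM with sgPIKFYVE_1, a fall. Of 44 adhesion proteins of the immunoglobulin family, 15 were called higher and 10 lower. CEACAM1 was at 14.004 and 15.3 CPM with sgNC and 34.6 and 36.9 CPM with sgPIKFYVE_1 and HEPACAM2, an adhesion protein of mitotic spindles and epithelia, at 14.5 and 15.8 CPM with sgNC and 59.95 and 54.5 CPM with sgPIKFYVE_1, while L1CAM, a neural adhesion molecule, was at 75.7 and 75.97 CPM with sgNC and 50.7 and 51.1 CPM with sgPIKFYVE_1. Of 6 claudins, 3 were called higher, or 2 without sgNC replicate 1, and 1 lower. The lower claudin was CLDN23 (-0.76), which did not pass when any 1 of the 4 libraries was left out. Of 26 tight junction genes, 5 were called higher, or 3 without sgNC replicate 1 or sgPIKFYVE_1 replicate 2, and 3 lower. Occludin, OCLN, was higher by 0.48, and by 0.30 with no call without sgPIKFYVE_1 replicate 2. Of 14 desmosome genes, 2 were called higher and 6 lower, or 1 and 3 without any of 3 of the libraries. Tetraspanins were higher in 10 of 23 and lower in 5, or 3 without sgPIKFYVE_1 replicate 2, with TSPAN8 at 831 and 856 CPM with sgNC and 1311 and 1407 CPM with sgPIKFYVE_1 and TSPAN1 at 50.2 and 46.98 CPM with sgNC and 108 and 107 CPM with sgPIKFYVE_1. Of 7 S100 proteins, S100A6 rose and S100A10, at 71.7 and 73.5 CPM with sgNC and 26.96 and 29.1 CPM with sgPIKFYVE_1, S100A16 and S100A11 fell.

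The organelle on which PIKfyve acts also changed. Of 64 lysosomal genes, 33 (51.6%) were called higher and 8 lower (median 0.27). The protease LGMN was at 76.8 and 78.3 CPM with sgNC and 214 and 212 CPM with sgPIKFYVE_1 (log2 fold change 1.45, SE 0.057, limma adjusted p = 2.17e-13), NPC2, which carries cholesterol out of the lysosome, at 42.8 and 42.3 CPM with sgNC and 113 and 102 CPM with sgPIKFYVE_1, and IDUA, a glycosidase, at 19.1 and 19.5 CPM with sgNC and 9.64 and 9.92 CPM with sgPIKFYVE_1, lower. Of 48 autophagy genes, 10 were called higher and 15 lower, with MAP1LC3B at 103 and 110.4 CPM with sgNC and 159 and 154 CPM with sgPIKFYVE_1 and ATG7 at 40.7 and 41.5 CPM with sgNC and 21.8 and 23.3 CPM with sgPIKFYVE_1. Of 30 endosomal phosphoinositide enzymes, 8 were called higher and 4 lower, PIKFYVE included, or 2 lower without sgNC replicate 1 or sgPIKFYVE_1 replicate 2. For scale, 18 of 20 cholesterol synthesis genes were called higher, with a median of 0.84, above that of any program described here. Of 425 genes with ZNF symbols, most of them KRAB zinc fingers, 27 (6.35%) were called higher and 98 (23.1%) lower, with a median of -0.13.

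The programs of the knockdown were set beside those of the enzyme inhibitor, with separate controls for each. Labels give 24 h of apilimod and a figure legend of the study 8 h, and guide, duration and drug selection differ, so what sets the effects apart cannot be told. Of 13183 genes tested in both tables, the effects differed in 3151 (23.9%) at an adjusted p-value under 0.05 by a limma interaction. The effects differed in 79 of 84 mitosis genes, 62 of 83 replication genes, 35 of 44 HIF targets and 23 of 50 interferon-stimulated genes. With apilimod the medians of these lists were -0.17, -0.05, 0.06 and 0.01, against 0.56, 0.51, -0.57 and 0.49 in the knockdown over the same genes. Cholesterol synthesis was the reverse in size, with a median of 1.96 with apilimod and 0.84 in the knockdown.

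**Figure D5:**
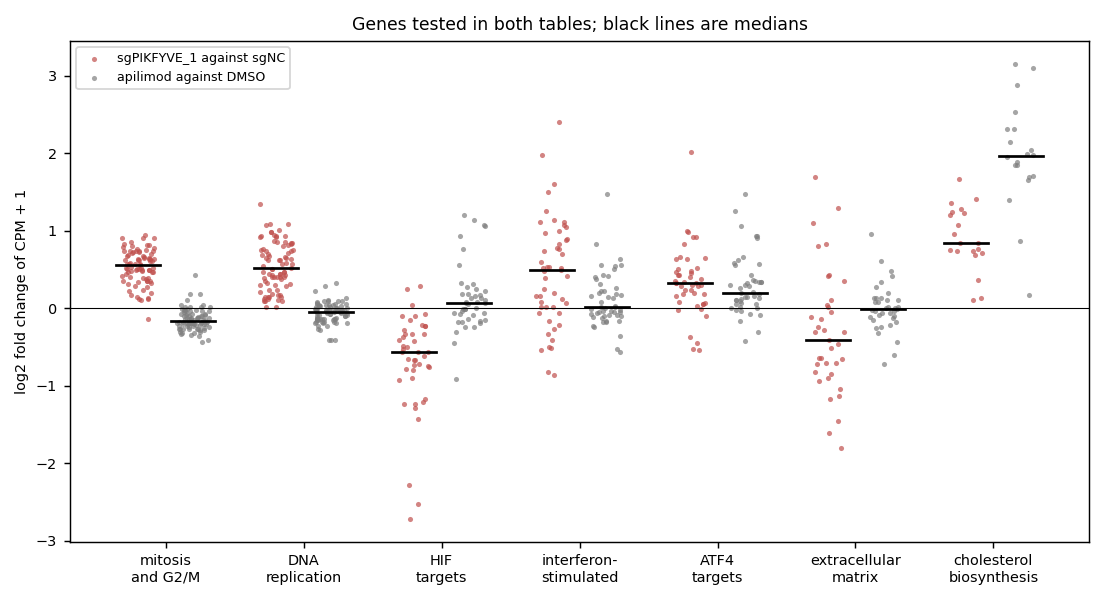
log2 fold change of CPM + 1 for each gene of 7 lists in the knockdown against sgNC (red) and with apilimod against DMSO (grey), with black lines at the medians, over genes tested in both tables. In the knockdown mitosis, replication and interferon genes lie above 0 and HIF targets below it, while with apilimod the medians of these lists stay within 0.17 of 0, and cholesterol genes rise in both.

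Single genes named for their change in the knockdown were also looked up with apilimod. Picking them by that change favours a difference, so their p-values add no support to the pattern of the lists. CEACAM6 was -0.04 with apilimod (adjusted p of the difference 3.31e-12, limma), TNFSF15 -0.10 (adjusted p of the difference 3.31e-12), IGF2 -0.19 (5.65e-09) and TFF1 -0.34 (3.34e-09). None of these passed in the apilimod comparison itself. VGF was 0.10, CALCA -0.12, MMP2 -0.32 and ITGB5 -0.17 with apilimod, and in each the difference passed. GDF15 rose in both, by 2.02 and 0.57, and STC1 fell in both, by log2 fold changes of -2.72 and -0.92, with the larger change in the knockdown. In the list of ATF4 targets the effects differed in 20 of 46 genes, with a median of 0.20 with apilimod and 0.33 in the knockdown. Of its members, DDIT3 and ATF3 had log2 fold changes of 0.92 and 1.25 with apilimod, close to 0.98 and 0.996 in the knockdown. For both, the test of the difference was not passed (limma adjusted p = 0.795 and 0.474). The same held for NPC2, at 1.37 and 1.31. NEU1, a lysosomal sialidase encoded in the MHC region, rose more with apilimod, by 3.21 against 1.44.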

How the data were processed

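Gene tables of QGP-1 RNA-seq, deposited by the authors, were the starting point. The labels name ribosomal RNA depletion and the study's methods oligo(dT) selection. Per the labels, the submitters' processing notes name bcl2fastq 2.20, FastQC, Trimmomatic, edgeR, DESeq2 and hg38. The quantifier and annotation are not given in the sources used here. The authors deposited a normalized expression signal, estimated counts scaled to a TMM-adjusted library size (CPM), with each table scaled on its own. The design had assumed plain CPM, and the same log-scale test was used. Depth was estimated from the step between low values, of which 68.8% to 71.5% were whole reads within a tolerance of 0.02, so no count test was run and depths are approximate.

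Values were taken as log2(CPM + 1) for genes averaging 1 CPM or more in the 4 libraries and fitted with limma 3.58.1 (R 4.3.3, lmFit and eBayes with a variance trend). P-values were adjusted by the Benjamini-Hochberg method over all genes tested, with a threshold of 0.05. The difference from apilimod was an interaction over 8 samples, each table with its own controls. The procedure was tested on simulated data for the knockdown comparison, where 67.2% of 195, 92.9% of 196 and 99.5% of 197 genes changed by 0.5, 1 and 2 on the log2 scale were called. The simulation used a fixed noise level that was not fitted to these libraries, and few changed genes. These shares therefore need not hold for the real samples.

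The members and gene lists were chosen with earlier results of these data known. Genes were named by a rule: PIKFYVE, the 15 highest and 15 lowest protein-coding genes called with non-overlapping groups and a group mean of at least 5 CPM, up to 5 in each direction per list under the same conditions, and the 5 most abundant granule proteins and lineage factors. Outside this rule were neighbours of PIKFYVE, ZNF10, CHGA, CLDN23 and further members of the hypoxia, hormone, integrin and interferon lists. So were the genes with printed promoter windows other than ZWINT, CA9, PPFIA4 and IFIT3. All of these were chosen after their values were seen. Some items are not reported here. Gene names were looked up in GENCODE release 29, which held 35547 of 35606 gene identifiers, and promoters came from RefSeq. Alternatives were another pseudocount (0.1), other filters (none, 5 CPM), rescaling, quantile normalization, no variance trend, robust eBayes, a replicate block and leaving out each library.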

Additional observations from a re-analysis of the deposited data

Results flagged for a closer look

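The genes in this section were called in opposite directions in the knockdown and with apilimod, and in each the difference between the effects passed the limma interaction test. The difference is the knockdown log2 fold change minus that of apilimod. It was -1.58 for DDIT4, an inhibitor of mTORC1, and -0.93 for VEGFA, both lower in the knockdown and higher with apilimod. The others were higher in the knockdown and lower with apilimod, with a difference of 1.25 for INPP4B, a phosphoinositide phosphatase, 0.96 for the tetraspanin TSPAN8, 0.89 for the cadherin CDH6, 0.67 for the matrix protein TGFBI, 0.65 for the sodium channel SCN3A and 0.33 for SEC23B, a coat protein of transport vesicles. The knockdown calls of CDH6 and SEC23B were each lost when a single library was left out. Guide and drug also differ in duration and in selection, and these cannot be told apart.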

How the results depend on the processing

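Exceptions among counts over all genes, against 376 genes at a log2 fold change of at most -1, 5772 called, 2935 higher and 3151 with a difference from apilimod, were 250 at most -1 with a mean of at least 5 CPM, 3709 called and 1776 higher with no variance trend, and differences of 2092 with no filter on low values and 1942 with no variance trend. Leaving out 1 library gave 4471 to 5151 called, 2288 to 2561 higher, 2183 to 2590 lower, 224 to 232 at least 1, 389 to 441 at most -1 and 2288 to 2954 differences, and the lone sample is then assumed to vary like the other group. Rescaling each sample to the same total moved the higher share of calls from 50.8% to 43.6% and the median to -0.04. With no filter 4037 genes were called. Reversed values, all of genes that did not pass, included TPH1 at -0.0137 with quantile normalization. With 1 library left out, PROX1 ranged from -0.0597 to 0.0118, ONECUT2 from -0.0254 to 0.0165 and SCG2 from -0.0523 to 0.0180. The cause of these changes was not tested. Counts in gene lists moved more with no variance trend, where lower calls went from 26 to 7 for ribosomal proteins, from 6 to 1 for desmosomes and from 17 to 9 for the unfolded protein response, and higher calls from 15 to 4 for focal adhesion and from 3 to 0 for claudins, while 68 mitosis genes were still higher and 34 hypoxia-inducible factor targets lower. Of 412 named genes, 108 lost their call under at least 1 alternative. Deviations of samples with the same replicate number correlated at 0.037 across genes, which cannot show whether those samples were prepared together. With the replicate block 6111 genes were called, among them all 5772, and 3449 for the difference. At these depths low genes rest on few reads.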
